A study of Homo sapiens with 6 samples.

Results

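The 48 genes described here encode the machinery that copies DNA in S phase and the enzymes that supply its nucleotides: the origin recognition, helicase, polymerase, clamp, joining, nucleotide synthesis and chromatin assembly genes. They were taken by name from a table of 22153 genes, as a list chosen with earlier results of these data known, and 48 of the 48 were found there. All 48 also passed the filter on low values, which kept 10246 genes for testing. The cells were EA.hy926, a human line made by fusing an umbilical vein endothelial cell with the lung carcinoma line A549, so that the series describes 1 hybrid line. The hypoxia group is 3 libraries of cells kept at 1% O2 for 8 h, and the normoxia group is 3 libraries of cells at 20% O2. Per the labels both groups share the line, a high-glucose medium with fetal bovine serum and growth to near confluence, and polyadenylated RNA was sequenced. The comparison asks which transcripts differ after 8 h of low oxygen.

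A cell prepares for DNA synthesis in G1 by licensing: the origin recognition complex (ORC), CDC6 and CDT1 load the MCM2-7 ring, the core of the replicative helicase, onto DNA. Kinases then fire the origins by bringing CDC45 and the GINS complex to the ring, and polymerases alpha, delta and epsilon copy the strands with the PCNA clamp, its RFC loader, the RPA single-strand binding complex, and FEN1 and LIG1, which finish Okazaki fragments. Most of these genes are transcribed at the G1 to S boundary by the E2F family of transcription factors, which the retinoblastoma proteins hold in check. In bulk RNA a lower level of such transcripts can mean fewer cells in S phase or less RNA in each cell, and these cannot be told apart here.

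The members' promoters hold letters of this E2F control more often than promoters at large. Sequences from RefSeq (assembly GRCh38.p14) were available for 42 of the 48 members, over the 250 bases before the annotated start, and none were used for GINS4, MCM4, MCM5, POLD3, RPA2 and RPA3. The E2F letters searched were TTTGGCGC, TTTCGCGC, TTTCCCGC and TTTGCCGC, on both strands. They were present in 14 of the 42 member promoters (33.3%), against 2.79% of all 27305 promoters of the same length and 4.91% of the 7857 promoters of tested genes. The 14 promoters held 18 matches, and 12 of these lay within 100 bases of the start. Matches can overlap: the 4 in MCM6 form 2 pairs in which a match on the + strand shares bases with one on the - strand. CCAAT, the letters bound by NF-Y, were in 57.1% of member promoters, 33.0% of all promoters and 35.6% of those of tested genes. ACGTG or GCGTG, the core letters of a hypoxia response element, were in 64.3% of member promoters, 43.1% of all promoters and 59.0% of those of tested genes. TTTGAA, the core of the cell cycle homology region of mitotic genes, was in 2.38% of member promoters, against 13.6% of all promoters and 7.69% of those of tested genes. These other letters were also searched on both strands, and a match describes letters, not binding.

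The 5 promoters printed first belong to the members with an E2F match that had the largest log2 differences between the groups, and the MCM6 promoter is added because it held the most matches, a choice made after its matches were seen. Each is read 5′ to 3′ on the gene's strand, the last base being the one before the annotated start, with the E2F letters in capitals. CDC25A encodes the phosphatase that activates the S phase kinases, and its window is chr3:48188418-48188667 (- strand). POLA2 encodes the B subunit of polymerase alpha, at chr11:65261712-65261961 (+ strand). PCNA encodes the sliding clamp, at chr20:5126623-5126872 (- strand). POLE encodes the catalytic subunit of polymerase epsilon, at chr12:132687343-132687592 (- strand). LIG1 encodes the ligase that seals Okazaki fragments, at chr19:48170345-48170594 (- strand). MCM6 encodes a subunit of the helicase ring, at chr2:135876444-135876693 (- strand).
CDC25A: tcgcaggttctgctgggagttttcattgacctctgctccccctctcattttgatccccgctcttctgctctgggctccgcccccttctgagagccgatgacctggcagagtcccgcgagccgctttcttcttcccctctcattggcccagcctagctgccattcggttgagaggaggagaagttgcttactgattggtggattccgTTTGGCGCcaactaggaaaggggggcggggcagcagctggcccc
POLA2: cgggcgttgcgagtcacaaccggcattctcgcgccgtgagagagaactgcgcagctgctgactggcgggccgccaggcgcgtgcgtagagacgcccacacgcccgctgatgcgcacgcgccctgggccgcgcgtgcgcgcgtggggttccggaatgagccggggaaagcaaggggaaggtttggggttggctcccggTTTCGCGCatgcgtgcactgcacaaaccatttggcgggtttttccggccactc
PCNA: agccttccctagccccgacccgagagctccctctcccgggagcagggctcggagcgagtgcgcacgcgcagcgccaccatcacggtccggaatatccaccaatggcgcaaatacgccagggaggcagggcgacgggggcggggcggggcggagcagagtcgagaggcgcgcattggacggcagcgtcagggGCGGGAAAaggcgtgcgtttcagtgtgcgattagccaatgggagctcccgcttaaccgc
POLE: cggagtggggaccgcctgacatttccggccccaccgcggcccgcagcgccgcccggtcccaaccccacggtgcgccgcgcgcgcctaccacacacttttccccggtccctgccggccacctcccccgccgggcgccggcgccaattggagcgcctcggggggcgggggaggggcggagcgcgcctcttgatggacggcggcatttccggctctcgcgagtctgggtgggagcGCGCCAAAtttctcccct
LIG1: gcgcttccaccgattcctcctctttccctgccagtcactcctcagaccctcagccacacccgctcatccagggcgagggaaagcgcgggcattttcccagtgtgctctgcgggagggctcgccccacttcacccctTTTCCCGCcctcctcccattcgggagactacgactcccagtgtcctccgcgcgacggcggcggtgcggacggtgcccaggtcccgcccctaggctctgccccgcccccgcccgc
MCM6: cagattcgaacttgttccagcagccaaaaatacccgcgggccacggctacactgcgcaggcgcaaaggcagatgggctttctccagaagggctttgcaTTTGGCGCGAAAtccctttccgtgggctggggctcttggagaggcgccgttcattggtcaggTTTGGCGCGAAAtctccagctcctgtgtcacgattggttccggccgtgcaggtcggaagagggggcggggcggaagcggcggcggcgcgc
In CDC25A and POLA2 the letters start 44 and 53 bases before the start and lie on the gene's strand, in PCNA and POLE they start 59 and 18 bases before it and lie on the other strand, and in LIG1 they start 114 bases before it on the gene's strand. In MCM6 the same 12 letters occur at 2 places, each holding overlapping matches on both strands. The median log2 difference (hypoxia minus normoxia) was -0.23 for the 14 members with a match and -0.22 for the 28 without one, and the difference between these sets was not tested.

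Depth was 17226736 to 18652704 reads per library, spread over 16741 genes in normoxia replicate 3 and 18214 to 18858 genes in the other 5 libraries. The response to low oxygen was visible in them: BNIP3, a mitophagy receptor, had 6951, 5879 and 7254 normalised reads in hypoxia replicates 1 to 3, against 520.0, 573 and 694 in normoxia replicates 1 to 3 (log2 difference 3.47, adjusted p = 0.00207 by limma with Benjamini-Hochberg adjustment). PGK1, a glycolytic kinase, had 33989, 35029.9 and 30381 in hypoxia, against 10673, 10306 and 8325 in normoxia (log2 difference 1.77, adjusted p = 0.0236 in the same test), and 5 of 6 tested hypoxia check genes passed the test. VEGFA did not pass (log2 difference 1.39, adjusted p = 0.867 in the same test), and the check gene CA9 was below the filter. Endothelial identity was present, with 10 of 11 marker genes above the filter (CLDN5 was below it) and a summed level of 1199 to 2468 FPKM in hypoxia and 1167 to 1930 FPKM in normoxia. Of 9 epithelial markers, 6 were measured and 3 passed the filter (KRT8, KRT18 and MUC1), and the 6 summed to 316 to 464 FPKM in hypoxia and 355 to 493 FPKM in normoxia. KRT8 and KRT18 made up nearly all of this sum, with 248 and 215 FPKM of the 464 in hypoxia replicate 1. KRT19, EPCAM and CLDN4 were below the filter, and CDH1, ESRP1 and GRHL2 had no entry among the 22153 genes. The 5 of 9 fibroblast and mural markers that were measured summed to 11.6 to 12.1 FPKM in hypoxia and 8.54 to 17.2 FPKM in normoxia, and the 3 of 7 leukocyte markers to 1.11 to 2.87 FPKM in hypoxia and 0.510 to 3.25 FPKM in normoxia. Normoxia replicate 3 stood apart on the first principal component of all tested genes, at -63.6 against -21.5 to 38.9 in the other 5 libraries, and the values of each gene group are also given without it.

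No transcript of the replication machinery passed the test for a difference after 8 h at low oxygen, and most had a slightly lower value in hypoxia than in normoxia. Of 48 members, 0 reached an adjusted p below 0.05 by limma with Benjamini-Hochberg adjustment, where 0.0976% of all tested genes did, and the lowest adjusted p among members was 1.00. At an unadjusted p below 0.05 the count was also 0, against 2.68% of tested genes. The count tests edgeR and DESeq2 called 0 members after adjustment, where they called 0.0976% and 0.488% of tested genes, and 0 at an unadjusted p below 0.05, against 2.45% and 2.97% of tested genes. Whether the 3 replicates of a group were separate cultures is not stated in the labels, so the p-values measure the spread between these libraries alone, and that spread may be technical.

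In the fit of all 6 libraries the direction of the values was nevertheless mostly the same. The log2 difference was below 0 in 44 of 48 members, against 49.4% of all tested genes, and the median was -0.23 for members and 0.00 for all tested genes. The 48 genes are not independent replicates, and hypoxia replicate 1 was the highest hypoxia library for 43 of them. This count of directions therefore has no test. The members ran from -0.68 (CDC25A) to 0.15 (RFC1), and the 4 with a positive value were CDT1, POLA1, PRIM2 and RFC1. In 39 of the 48 members the pooled SD within the groups (log2 scale) exceeded the difference between the groups. No member had 3 hypoxia values all below or all above its 3 normoxia values, where 2.71% of tested genes did with hypoxia lower and 4.76% with hypoxia higher. The 95% interval of the difference, which is not adjusted for the number of genes, excluded a 2-fold lower level in hypoxia for 23 members, a 2-fold higher level for 39 and both for 21. The pooled SD and interval counts have no share of all tested genes beside them, and describe the members alone. The median pooled SD was 0.46 for members and 0.38 for all tested genes, and the median standard error was 0.34 and 0.31.

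**Figure D1:**
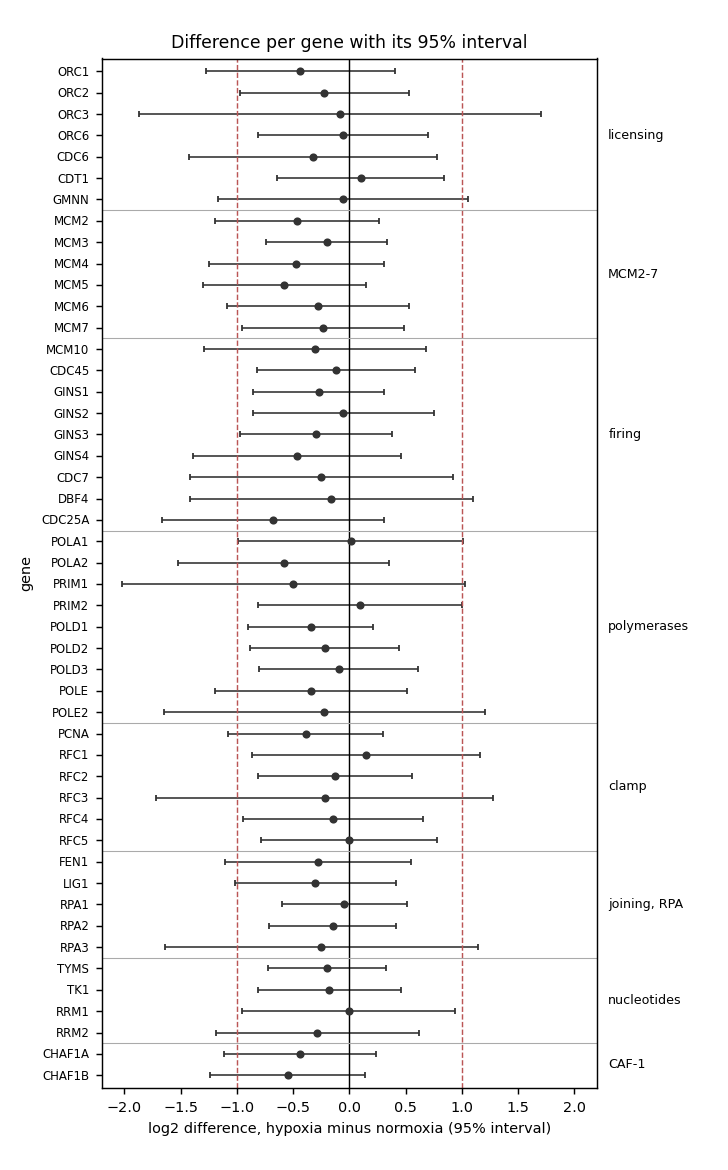
Each point is the log2 difference of 1 gene (hypoxia minus normoxia, limma, 3 libraries per group, log2(FPKM + 0.1) scale) with its unadjusted 95% interval, genes grouped by role from top to bottom. Dashed lines mark a 2-fold difference: 44 of 48 points lie left of 0, all 48 intervals include 0, and ORC3 has the widest interval.

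Both the size of the median and the share of members with a negative value depended on single libraries. Without normoxia replicate 3 the median over members was -0.05 and 29 of 48 were negative. Leaving out hypoxia replicate 2 instead gave -0.04 and 24 of 48, where 5018 of all 10246 tested genes were negative. By contrast, leaving out hypoxia replicate 1 gave -0.47 and 46 of 48. The median was -0.16 without hypoxia replicate 3 (43 of 48 negative), -0.27 without normoxia replicate 1 (43) and -0.38 without normoxia replicate 2 (46). Without both hypoxia replicate 1 and normoxia replicate 3, a combination chosen after seeing the data, the median was -0.36 and 40 of 48 were negative. No member passed the test in any of these fits. A negative difference in the fit of all 6 libraries and in every one of the 16 alternative fits that measured the gene was found for 21 members. This was so for 20.0% of all tested genes, and a positive difference in all of these fits was found for 0 members. One of these fits, with a stricter filter, measured 27 of the members, and not ORC1, MCM10, GINS3, GINS4, CDC25A, POLA2, POLE or CHAF1B. The 21 are ORC1, MCM2, MCM3, MCM4, MCM5, MCM7, MCM10, GINS1, GINS3, GINS4, CDC25A, POLA2, POLD1, POLD2, POLE, PCNA, LIG1, TYMS, TK1, CHAF1A and CHAF1B.

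**Figure D2:**
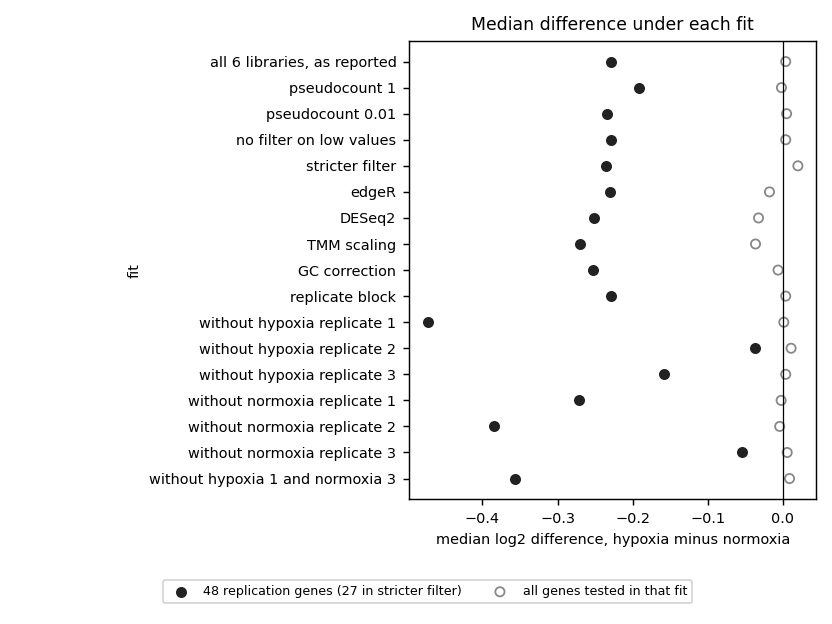
Each line is 1 fit: filled points show the median log2 difference (hypoxia minus normoxia) of the replication genes and open circles that of all genes tested in the same fit. The members' median lies below 0 in every fit, from -0.47 without hypoxia replicate 1 to -0.04 without hypoxia replicate 2.

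Origin licensing comes first in the order of replication. The 7 members are ORC1, ORC2, ORC3 and ORC6 of the origin recognition complex, the loading factors CDC6 and CDT1, and GMNN, which encodes geminin, the inhibitor of CDT1. Their median log2 difference was -0.09, with 6 of 7 negative. It was 0.04 without normoxia replicate 3 and 0.01 without hypoxia replicate 2, with 3 of 7 negative in each. Leaving out hypoxia replicate 1 gave -0.37, with 6 of 7 negative. ORC1 (ENSG00000085840, chromosome 1), the large ATPase subunit, had 263, 132 and 147 normalised reads in hypoxia replicates 1 to 3, against 257, 164 and 309 in normoxia replicates 1 to 3. Hypoxia replicates 2 and 3 lay below every normoxia library and hypoxia replicate 1 lay among them, so the groups overlapped, and the log2 difference was -0.44 (95% interval -1.28 to 0.40). CDC6 (ENSG00000094804, chromosome 17) had 884, 273 and 348 normalised reads in hypoxia replicates 1 to 3, against 506, 392 and 848 in normoxia replicates 1 to 3, with a log2 difference of -0.33 (95% interval -1.43 to 0.78). Its highest library was hypoxia replicate 1 and its lowest hypoxia replicate 2, so the hypoxia group alone spanned the whole range. The other licensing genes had log2 differences of -0.22 (ORC2), -0.09 (ORC3), -0.06 (ORC6), -0.06 (GMNN) and 0.10 (CDT1). For length-scaled levels, CDT1 exceeded GMNN 5.23-fold to 23.1-fold over the hypoxia libraries and 7.10-fold to 9.79-fold over the normoxia libraries, and the ranges overlapped.

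The helicase ring had lower values in hypoxia for each of its 6 subunits, with a median log2 difference of -0.37. It was -0.28 without normoxia replicate 3, with 6 of 6 still negative, and -0.25 without hypoxia replicate 2, with 5 of 6 negative. Leaving out hypoxia replicate 1 gave -0.63, with 6 of 6 negative. MCM2 (ENSG00000073111, chromosome 3) had 2009, 1516 and 1112 normalised reads in hypoxia replicates 1 to 3, against 2620.2, 1445 and 2375 in normoxia replicates 1 to 3. Hypoxia replicate 3 was the lowest and normoxia replicate 1 the highest library, with an overlap between hypoxia replicates 1 and 2 and normoxia replicate 2, and the log2 difference was -0.47 (95% interval -1.19 to 0.26). MCM5 (ENSG00000100297, chromosome 22), which with MCM2 forms the gate through which the ring opens, had 2466, 1971 and 1347 normalised reads in hypoxia replicates 1 to 3, against 3077, 1995 and 3584 in normoxia replicates 1 to 3. Only hypoxia replicate 1 reached above a normoxia library, and the log2 difference was -0.58 (95% interval -1.31 to 0.15). MCM4 (ENSG00000104738, chromosome 8) had 1499, 736 and 698 normalised reads in hypoxia replicates 1 to 3, against 1150.2, 1156 and 1565 in normoxia replicates 1 to 3. Hypoxia replicate 1 was near the highest value and the other 2 hypoxia libraries were below all of normoxia, with a log2 difference of -0.47 (95% interval -1.25 to 0.31).

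The other subunits differed less. MCM6 (ENSG00000076003, chromosome 2) had 963, 422 and 625 normalised reads in hypoxia replicates 1 to 3, against 677, 648 and 1043 in normoxia replicates 1 to 3, a log2 difference of -0.28 (95% interval -1.09 to 0.53). MCM7 (ENSG00000166508, chromosome 7) had 6147, 3824 and 3053 normalised reads in hypoxia replicates 1 to 3, against 5803, 3660.0 and 5515 in normoxia replicates 1 to 3, a log2 difference of -0.24 (95% interval -0.95 to 0.48). MCM3 (ENSG00000112118, chromosome 6) had 2141, 1460.0 and 1377 normalised reads in hypoxia replicates 1 to 3, against 2096, 1750.0 and 1795 in normoxia replicates 1 to 3, a log2 difference of -0.20 (95% interval -0.74 to 0.34). In MCM3 and MCM6 hypoxia replicates 2 and 3 lay below every normoxia library, and in MCM7 hypoxia replicate 3 did. Hypoxia replicate 1 was the highest library of MCM3 and MCM7 and lay inside the normoxia range in MCM6. Per length, MCM7 was the highest of the 6 subunits in 6 of 6 libraries, at 59.9 FPKM over all libraries, and MCM4 had the lowest mean at 9.15 FPKM. The ratio of MCM7 to MCM4 was 6.52 to 8.26 in hypoxia and 5.03 to 8.02 in normoxia, again overlapping. Some reads are uncertain, since MCM2 shares 22.7% of its exon bases with an antisense gene and MCM7 shares 8.94% with its neighbour AP4M1.

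Origin firing is represented by 9 members: MCM10, CDC45 and GINS1 to GINS4, which build the active helicase, the kinase CDC7 with its activator DBF4, and the phosphatase gene CDC25A. All 9 had negative log2 differences with a median of -0.27, and 6 of 9 were negative without normoxia replicate 3, with a median of -0.07. Without hypoxia replicate 2 the count was 5 of 9 and the median -0.08, and without hypoxia replicate 1 they were 9 of 9 and -0.51. CDC25A (ENSG00000164045, chromosome 3) had 281, 128 and 83.7 normalised reads in hypoxia replicates 1 to 3, against 262, 205 and 245 in normoxia replicates 1 to 3. Hypoxia replicate 1 was the highest library and hypoxia replicates 2 and 3 were the lowest, and the log2 difference, the largest among the members, was -0.68 (95% interval -1.66 to 0.31). Without hypoxia replicate 1 it was -1.14, and without normoxia replicate 3 it was -0.65. GINS4 (ENSG00000147536, chromosome 8) had 191, 76.7 and 79.8 normalised reads in hypoxia replicates 1 to 3, against 178, 128 and 149.5 in normoxia replicates 1 to 3, with a log2 difference of -0.47 (95% interval -1.39 to 0.46). The same order of libraries recurred, with hypoxia replicate 1 highest and hypoxia replicates 2 and 3 lowest, on few reads. The remaining firing genes lay between -0.31 (MCM10) and -0.05 (GINS2).

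Within the GINS complex the length-scaled ratio of GINS2 to GINS4 was 7.07 to 7.99 in the hypoxia libraries and 5.38 to 5.58 in the normoxia libraries. This ratio did not overlap between the groups. It was singled out after its values were seen, as the 1 of 12 ratios of subunits examined that separated the groups, and has no test. Exon bases of GINS4 are shared to 21.2% with an antisense gene, and it is uncertain for that reason as well.

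The polymerase and primase genes were the most mixed group in direction, with 7 of 9 negative and a median log2 difference of -0.22. The count was 4 of 9 and the median 0.04 without normoxia replicate 3, and the same without hypoxia replicate 2. Leaving out hypoxia replicate 1 instead gave 9 of 9 and -0.43. POLA2 (ENSG00000014138, chromosome 11) had 129.6, 58.1 and 58.9 normalised reads in hypoxia replicates 1 to 3, against 154, 107 and 105 in normoxia replicates 1 to 3. The lowest 2 libraries were hypoxia replicates 2 and 3, while hypoxia replicate 1 lay inside the normoxia range, and the log2 difference was -0.58 (95% interval -1.52 to 0.36). POLA2 shares 35.1% of its exon bases with an overlapping gene on the same strand, so its reads are uncertain. PRIM1 (ENSG00000198056, chromosome 12), the catalytic primase subunit that starts each new strand, had 286, 52.9 and 142 normalised reads in hypoxia replicates 1 to 3, against 119, 134 and 399 in normoxia replicates 1 to 3. Its values spread 7.54-fold over the 6 libraries, with normoxia replicate 3 highest and hypoxia replicate 2 lowest, and the log2 difference was -0.50 (95% interval -2.03 to 1.02). Among the catalytic subunits the log2 difference was 0.01 for POLA1 of polymerase alpha, -0.34 (95% interval -0.90 to 0.21) for POLD1 of polymerase delta and -0.34 (95% interval -1.20 to 0.51) for POLE of polymerase epsilon. POLD2 (-0.22), POLD3 (-0.10), POLE2 (-0.22) and PRIM2 (0.09), which encode accessory and primase subunits, complete the group.

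**Figure D3:**
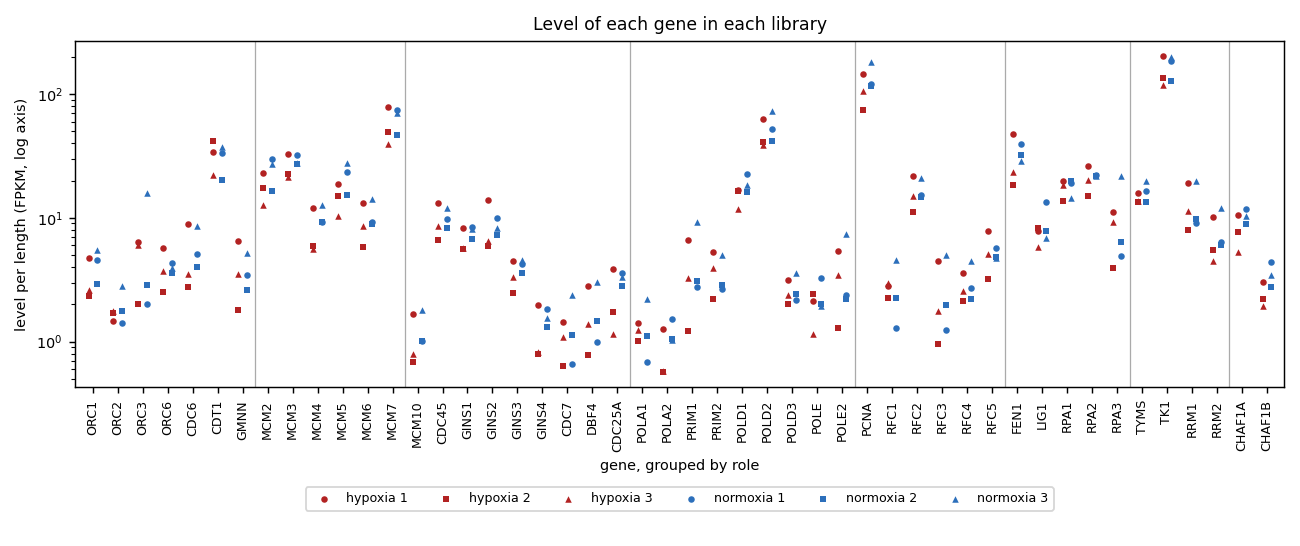
The level of each gene in each library is given in FPKM on a log axis, with hypoxia to the left (red) and normoxia to the right (blue) of each gene's position and 1 marker shape per replicate number. The groups overlap for all 48 genes, and TK1 and PCNA stand highest.

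The clamp and its loader had a median log2 difference of -0.14 over 6 members, with 5 negative. It was 0.08 without normoxia replicate 3, with 2 of 6 negative, and 0.19 without hypoxia replicate 2, with 1 of 6 negative. Leaving out hypoxia replicate 1 gave -0.36, with 5 of 6 negative. PCNA (ENSG00000132646, chromosome 20) had 3789, 1946 and 2743 normalised reads in hypoxia replicates 1 to 3, against 3179, 3022 and 4719.9 in normoxia replicates 1 to 3. Hypoxia replicates 2 and 3 were the lowest libraries and hypoxia replicate 1 the second highest, and the log2 difference was -0.39 (95% interval -1.08 to 0.30). RFC3 (ENSG00000133119, chromosome 13), a small loader subunit, had 230.2, 48.7 and 89.4 normalised reads in hypoxia replicates 1 to 3, against 63.5, 100.4 and 257 in normoxia replicates 1 to 3. Hypoxia replicate 2 was the lowest and normoxia replicate 3 the highest library, with the other values between them, and the log2 difference was -0.22 (95% interval -1.72 to 1.27). RFC1 (ENSG00000035928, chromosome 4), the large loader subunit and the member with the highest positive difference, had 334, 268 and 354 normalised reads in hypoxia replicates 1 to 3, against 155, 267 and 544 in normoxia replicates 1 to 3. The 3 hypoxia values lay inside the normoxia range, which normoxia replicates 1 and 3 set at both ends, and the log2 difference was 0.15 (95% interval -0.86 to 1.16). RFC2, RFC4 and RFC5, the other small subunits, had log2 differences of -0.13, -0.15 and -0.01.

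For the genes of fragment joining and single-strand binding the median was -0.25 over 5 members, all negative, and -0.19 without normoxia replicate 3, with 4 of 5 negative. Without hypoxia replicate 2 the direction turned, with a median of 0.06 and 1 of 5 negative. Leaving out hypoxia replicate 1 gave -0.36, with 5 of 5 negative. LIG1 (ENSG00000105486, chromosome 19) had 918, 976 and 676 normalised reads in hypoxia replicates 1 to 3, against 1559, 911 and 807 in normoxia replicates 1 to 3. Normoxia replicate 1 stood well above the other 5 libraries, which overlapped, and the log2 difference was -0.30 (95% interval -1.02 to 0.41). FEN1 (ENSG00000168496, chromosome 11), the flap endonuclease, had 2107, 805 and 1031 normalised reads in hypoxia replicates 1 to 3, against 1742, 1410.0 and 1270.5 in normoxia replicates 1 to 3. Here hypoxia replicate 1 was the highest library and hypoxia replicates 2 and 3 the lowest, with a log2 difference of -0.28 (95% interval -1.10 to 0.55). RPA1, RPA2 and RPA3 of the single-strand binding complex had -0.04, -0.15 and -0.25.

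The nucleotide supply genes include the most abundant member, TK1, and had a median log2 difference of -0.19 over 4 members, all negative. It was -0.02 without normoxia replicate 3, with 2 of 4 negative, and -0.13 without hypoxia replicate 2, with 3 of 4 negative. Leaving out hypoxia replicate 1 gave -0.37, with 4 of 4 negative. TYMS (ENSG00000176890, chromosome 18), thymidylate synthase, had 700.0, 588 and 599 normalised reads in hypoxia replicates 1 to 3, against 725, 588 and 875 in normoxia replicates 1 to 3. Normoxia replicate 3 was the highest library, the other 5 lay close together and the groups overlapped, and the log2 difference was -0.20 (95% interval -0.73 to 0.33). TK1 (ENSG00000167900, chromosome 17), thymidine kinase of the salvage route, had 6655, 4459.9 and 3894 normalised reads in hypoxia replicates 1 to 3, against 6072, 4222 and 6561 in normoxia replicates 1 to 3, with a log2 difference of -0.18 (95% interval -0.82 to 0.45). Hypoxia replicate 1 was its highest library. RRM1 (ENSG00000167325, chromosome 11), the large subunit of ribonucleotide reductase, had 1411, 595 and 848 normalised reads in hypoxia replicates 1 to 3, against 676, 726 and 1475 in normoxia replicates 1 to 3. Its lowest library was hypoxia replicate 2 and its highest normoxia replicate 3, with hypoxia replicate 1 just below, and the log2 difference was -0.01 (95% interval -0.95 to 0.94). RRM2 (ENSG00000171848, chromosome 2), the small subunit whose radical site needs oxygen and iron, had 961, 518 and 425 normalised reads in hypoxia replicates 1 to 3, against 608, 568 and 1126 in normoxia replicates 1 to 3. Hypoxia replicates 2 and 3 were the lowest and normoxia replicate 3 the highest, with a log2 difference of -0.29 (95% interval -1.19 to 0.62). Without normoxia replicate 3 the log2 difference was 0.35 for RRM1 and 0.02 for RRM2. Per length, RRM1 was above RRM2 in 6 of 6 libraries, 1.46-fold to 2.54-fold in hypoxia and 1.42-fold to 1.67-fold in normoxia. TYMS shares 39.2% of its exon bases with ENOSF1 on the opposite strand, and RRM2 shares 20.2% with an overlapping gene on the same strand.

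Chromatin assembly factor 1 places histones on new DNA at the fork, bound to PCNA. Its subunit genes CHAF1A and CHAF1B had negative differences in every fit that measured them, and the fit with the stricter filter did not measure CHAF1B. CHAF1A (ENSG00000167670, chromosome 19) had 803, 589 and 408 normalised reads in hypoxia replicates 1 to 3, against 896, 686 and 787 in normoxia replicates 1 to 3. CHAF1B (ENSG00000159259, chromosome 21) had 274, 199 and 175 normalised reads in hypoxia replicates 1 to 3, against 397, 250.0 and 313 in normoxia replicates 1 to 3. In both genes hypoxia replicates 2 and 3 lay below every normoxia library and hypoxia replicate 1 lay inside the normoxia range. The log2 differences were -0.44 (95% interval -1.11 to 0.24) for CHAF1A and -0.55 (95% interval -1.24 to 0.14) for CHAF1B, a median of -0.49 that was also -0.49 without normoxia replicate 3. Leaving out hypoxia replicate 2 gave -0.48, and leaving out hypoxia replicate 1 gave -0.70.

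Levels differed among members far more than between the groups. Per length TK1 was highest, with 151 ± 44.1 FPKM in hypoxia and 169.9 ± 37.3 FPKM in normoxia (SD, n = 3 each), followed by PCNA with 108 ± 35.3 FPKM in hypoxia and 139 ± 35.9 FPKM in normoxia. MCM7 had 55.7 ± 20.7 FPKM in hypoxia and 64.0 ± 14.9 FPKM in normoxia. These 3 ranges overlapped between groups in each gene. POLA2 was lowest, with 0.808 ± 0.404 FPKM in hypoxia and 1.20 ± 0.269 FPKM in normoxia, and the mean level of TK1 was 160-fold that of POLA2. The median member was at 6.49 FPKM, close to the 5.91 FPKM of the median tested gene. FPKM here rests on the summed length of all annotated exons, which understates the level of genes with long, rarely used exons.

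The libraries of 1 group differed among themselves in a way that most members shared. The share of reads from the 48 members was 0.294%, 0.178% and 0.196% in hypoxia replicates 1 to 3, against 0.269%, 0.233% and 0.326% in normoxia replicates 1 to 3. The members' median log2 deviation from each gene's mean over the 6 libraries was 0.38, -0.51 and -0.23 in hypoxia, against 0.09, -0.11 and 0.44 in normoxia. Hypoxia replicate 1 and normoxia replicate 3 were therefore high and hypoxia replicates 2 and 3 low, while the median over all tested genes stayed between -0.03 and 0.03 in every library. Hypoxia replicate 1 was the highest hypoxia library for 43 of 48 members (89.6%), against 34.8% of all tested genes. Normoxia replicate 3 was the highest normoxia library for 30 of 48 (62.5%), against 39.9%. Hypoxia replicate 2 was the lowest of all 6 libraries for 29 members, against 17.6% of all tested genes. In 20 of 48 members hypoxia replicates 2 and 3 were both below every normoxia library, against 6.53% of all tested genes, but these libraries were singled out after their values were seen and no test is attached to that count.

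Endothelial markers moved with the same libraries in the opposite direction. Their summed level was 1199, 2468 and 1638 FPKM in hypoxia replicates 1 to 3, against 1930, 1677 and 1167 FPKM in normoxia replicates 1 to 3, so hypoxia replicate 1 and normoxia replicate 3 were low. These 2 libraries were the lowest of the 6 for 9 of 10 tested endothelial markers and the highest of the 6 for 25 of 48 replication members (52.1%), where each was the case for 18.1% of all tested genes. VWF, von Willebrand factor, had 371, 4819 and 1568 normalised reads in hypoxia replicates 1 to 3, against 3522, 2669 and 462 in normoxia replicates 1 to 3. CDH5, the endothelial cadherin, had 10212, 36221 and 17876 normalised reads in hypoxia replicates 1 to 3, against 21451, 19218 and 8576 in normoxia replicates 1 to 3, and KDR, a VEGF receptor, had 135, 490.5 and 266 normalised reads in hypoxia replicates 1 to 3, against 639.7, 679 and 252 in normoxia replicates 1 to 3. In all of these hypoxia replicate 1 and normoxia replicate 3 were lowest and the groups overlapped. The median log2 difference of the 10 markers was 0.05. Leaving out hypoxia replicate 1 gave 0.34, whereas leaving out normoxia replicate 3 gave -0.16 and leaving out hypoxia replicate 2 gave -0.18. The summed level of the epithelial markers, nearly all KRT8 and KRT18, was 464, 316 and 401 FPKM in hypoxia replicates 1 to 3, against 359, 355 and 493 FPKM in normoxia replicates 1 to 3. The sum was highest in hypoxia replicate 1 and normoxia replicate 3, but the single markers did not share this. These 2 libraries were the highest of the 6 for 1 of 3 tested epithelial markers (KRT8) and the lowest for 1 (MUC1). This pair of libraries and the 3 endothelial markers given by library were singled out after values were seen, and the part of cell identity or state in the replication values was not tested.

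**Figure D4:**
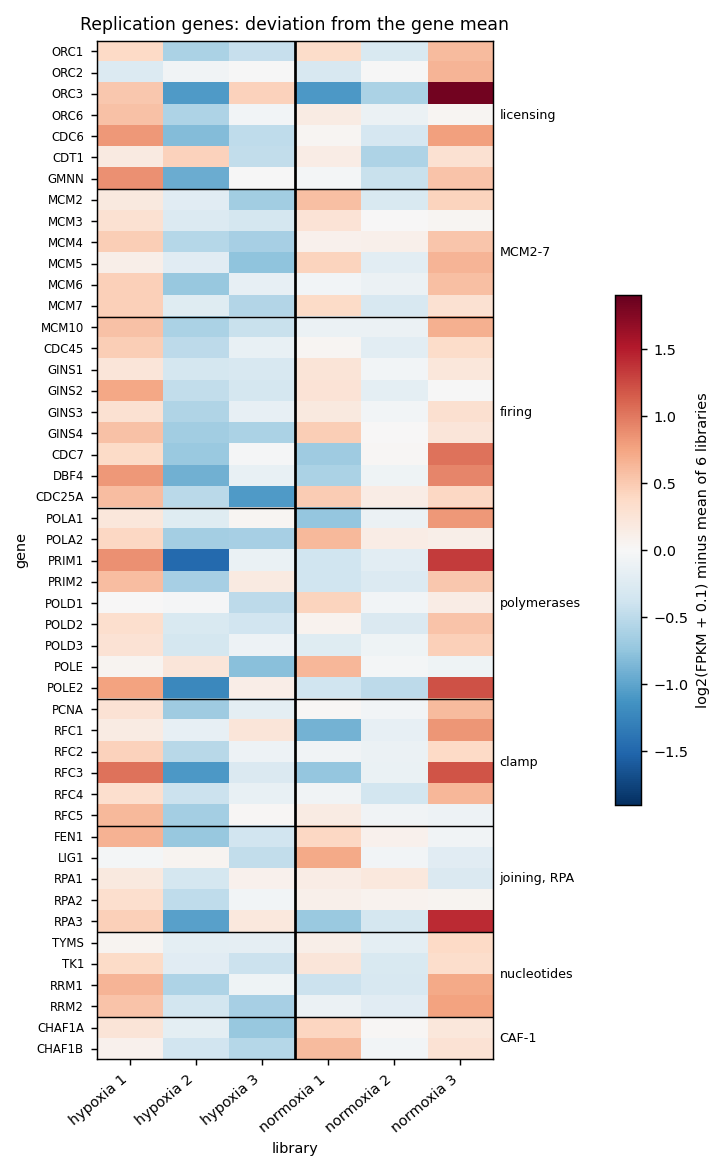
Colour shows each gene's log2(FPKM + 0.1) in a library minus its mean over the 6 libraries, red above and blue below, with genes grouped by role and hypoxia libraries left of the line. Hypoxia replicate 1 and normoxia replicate 3 are mostly red and hypoxia replicate 2 mostly blue.

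Base composition moved with part of this spread. Transcripts of members held 39.1% to 65.0% GC, with a median of 47.7%, against 49.5% for tested genes. Across the 48 genes, which are not independent replicates and share each library's depth and composition, the Pearson correlation of deviation with GC content was -0.39, 0.62 and -0.61 in hypoxia replicates 1 to 3, against 0.69, -0.01 and -0.53 in normoxia replicates 1 to 3. Over all tested genes the values were -0.32, 0.46 and -0.29 in hypoxia, against 0.61, 0.23 and -0.52 in normoxia. Among the 24 members with lower GC content, normoxia replicate 3 was the highest normoxia library in 21, and among the 24 with higher GC content in 9. Hypoxia replicate 1 was the highest hypoxia library in 22 and 21 of these 24.

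The 24 lower-GC members had a median log2 difference of -0.22, and 0.12 without normoxia replicate 3 or without hypoxia replicate 2. The 24 higher-GC members had -0.29, and -0.29 without normoxia replicate 3 and -0.21 without hypoxia replicate 2, and the difference between these sets was not tested. Leaving out hypoxia replicate 1 gave medians of -0.50 for the lower-GC and -0.44 for the higher-GC members. After correction for GC content within each library, the median over all 48 was -0.25 with 45 negative, and 0 passed the test. The read share of mitochondrial transcripts also varied, and was 3.84%, 2.56% and 1.69% in hypoxia replicates 1 to 3 and 4.83%, 3.44% and 3.11% in normoxia replicates 1 to 3. The GC correction was not combined with leaving out libraries. The part of mitochondrial share or base composition in the difference between the groups was not tested.

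**Figure D5:**
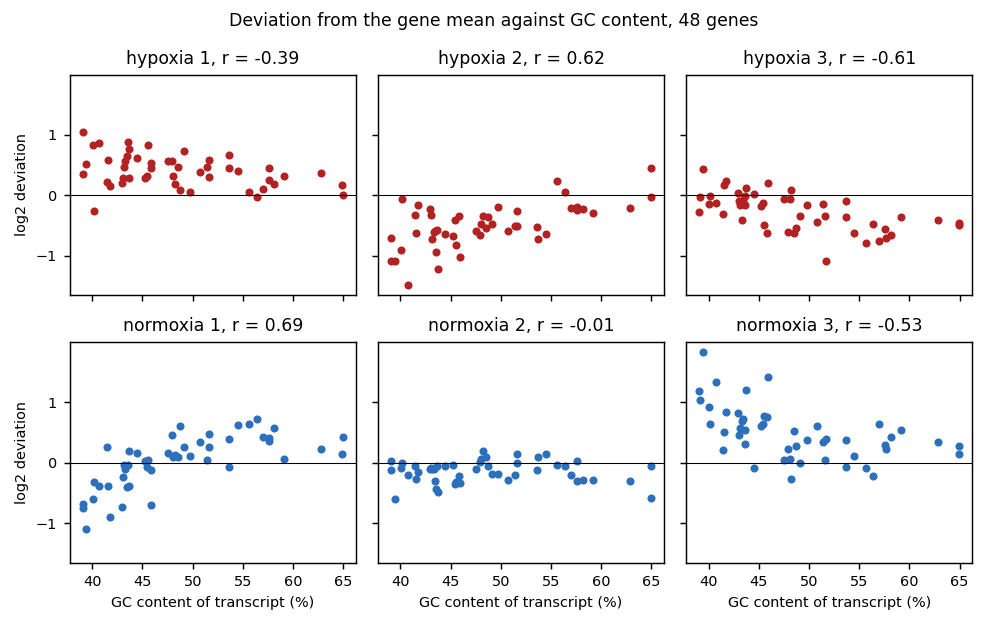
Each panel is 1 library, hypoxia in the upper line and normoxia in the lower, and each point is 1 of 48 genes: GC content of the transcript (%) against log2 deviation from the gene's mean. The slope differs in sign between libraries of 1 group, with r = 0.62 in hypoxia replicate 2 and -0.61 in hypoxia replicate 3, against 0.69 in normoxia replicate 1 and -0.53 in normoxia replicate 3.

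Some members varied more than others. The highest library exceeded the lowest by a median of 2.37-fold over the members and 2.0-fold over all tested genes, and 5 members exceeded 5-fold: ORC3 (7.91), PRIM1 (7.54), POLE2 (5.72), RPA3 (5.52) and RFC3 (5.27). ORC3 had 415, 133 and 392 normalised reads in hypoxia replicates 1 to 3, against 131, 188 and 1038 in normoxia replicates 1 to 3, and normoxia replicate 3 alone lay far above the rest. Without normoxia replicate 3 its log2 difference was 0.81, against -0.09 with all libraries. Among the 22 members that share annotated exon bases with other genes the reads may be divided, and whether reads were counted by strand is not stated in the labels. The 26 members without shared exon bases had a median log2 difference of -0.22, with 22 negative. Without normoxia replicate 3 it was -0.03 with 15 negative, and without hypoxia replicate 2 it was 0.01 with 12 negative. Leaving out hypoxia replicate 1 gave -0.45 with 24 negative.

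Genes around the same pathway also had none past the test, and the direction of their medians depended on single libraries. Of 35 other replication fork genes 28 were tested, and 0 passed, with 22 negative and a median log2 difference of -0.15. Their median was 0.01 without normoxia replicate 3, with 13 of 28 negative, and -0.08 without hypoxia replicate 2, with 17 negative. Leaving out hypoxia replicate 1 gave -0.32, with 23 negative. CLSPN, the claspin checkpoint mediator, had 150.4, 69.5 and 108 in hypoxia, against 113, 131 and 307 in normoxia, a log2 difference of -0.62 (95% interval -1.67 to 0.43). POLD4, the small subunit of polymerase delta, had 282, 439 and 447 in hypoxia, against 357, 370.3 and 86.5 in normoxia, a log2 difference of 0.74 (95% interval -0.52 to 1.99). In POLD4 normoxia replicate 3 was far below the other 5 libraries, and in CLSPN far above them. Of 31 other nucleotide supply genes 30 were tested, with 0 past the test, 19 negative and a median of -0.08. For these the median was -0.01 without normoxia replicate 3, with 16 of 30 negative, and without hypoxia replicate 2 it was 0.07 with 11 negative. Leaving out hypoxia replicate 1 gave -0.12, with 23 negative. PAICS, a purine synthesis enzyme, had 4843, 2762 and 3677 in hypoxia, against 2139, 2298 and 3954 in normoxia, a log2 difference of 0.44 (95% interval -0.28 to 1.17). NME2, a nucleoside diphosphate kinase, had 77.8, 51.8 and 106 in hypoxia, against 91.1, 85.2 and 12.2 in normoxia, a log2 difference of 0.61 (95% interval -0.95 to 2.17). Normoxia replicate 3 was again far below the others, and NME2 shares exons with the read-through gene NME1-NME2, so its reads are uncertain.

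The E2F family and its partners, the regulators of S phase genes, had 0 of 14 tested genes past the test, 8 negative and a median of -0.19. Without normoxia replicate 3 the median was -0.02, also with 8 negative, and without hypoxia replicate 2 it was -0.19 with 9 negative. Leaving out hypoxia replicate 1 gave -0.14, with 10 negative. RBL1, the p107 pocket protein, had 162, 115 and 162 in hypoxia, against 150.4, 138 and 422 in normoxia, with a log2 difference of -0.49 (95% interval -1.53 to 0.54). E2F7, an atypical repressor of the family, had 559, 412 and 219 in hypoxia, against 502, 283 and 872 in normoxia, with a log2 difference of -0.42 (95% interval -1.53 to 0.69). In both, normoxia replicate 3 was the highest library. Of 10 mitotic genes 0 passed, with 7 negative and a median of -0.10. The direction turned without normoxia replicate 3, with a median of 0.14 and 3 of 10 negative, and without hypoxia replicate 2, with 0.18 and 3 of 10 negative. Leaving out hypoxia replicate 1 gave -0.35, with 10 of 10 negative. MKI67, the proliferation marker Ki-67, had 491, 545 and 446 in hypoxia, against 610.1, 661 and 1519 in normoxia, a log2 difference of -0.76 (95% interval -1.64 to 0.11). It was the only gene with hypoxia values all below the normoxia values in these lists of 28, 30, 14 and 10 tested genes. Over all tested genes the share with such values was 2.71%. In MKI67 normoxia replicate 3 was again far above the rest. CENPF, a kinetochore protein of G2 and mitosis, had 201, 213 and 239.5 in hypoxia, against 148, 208 and 1113 in normoxia, a log2 difference of -0.57, and its hypoxia values overlapped those of normoxia replicates 1 and 2.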

How the data were processed

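Polyadenylated RNA of EA.hy926 cells was sequenced in 3 hypoxia and 3 normoxia libraries, per the labels. The submitters' processing notes list CASAVA, HISAT2 2.0.5 and featureCounts 1.5.0-p3, and a mouse build (mm9) that cannot be the build here, since all 22153 gene identifiers are human and were found in GENCODE release 29 (GRCh38). Not given in the sources used here were the genome build, the annotation and whether reads were counted by strand. The deposited signal, in a table named for FPKM, held 100% whole multiples of 1 step per library (tolerance 0.05 of a step), so it is reads divided by a size factor (0.944 to 1.06) per library, without gene length, and the depth is the reads recovered, 17226736 to 18652704. Deposited signal was called normalised reads in the text. It was divided by GENCODE exon length and the mean library total to give an FPKM scale, with a filter of 1 or more in at least 3 libraries. Symbols were found for 21988 identifiers.

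The groups were compared by limma 3.58.1 in R 4.3.3 on log2(FPKM + 0.1), with group as the only term, a variance trend and robust estimates. All p-values are two-sided and were adjusted by Benjamini-Hochberg over 10246 genes, at a threshold of 0.05. Differences on this scale understate the change of low genes, and intervals cover the spread between libraries. On the recovered reads edgeR 4.0.16 called 10 genes and DESeq2 1.42.0 called 50. The alternatives were other pseudocounts (1 and 0.01), no filter or a stricter one (5), TMM scaling, GC correction, a replicate block and leaving out libraries. Values in every library are given for the 2 members of each role with the largest differences, MCM2 to MCM7, PCNA, TYMS, TK1, RRM1 and RRM2, and the 2 genes with the largest differences of each further list, and otherwise for a gene singled out in its sentence. The members and lists were chosen with earlier results of these data known.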

Additional observations from a re-analysis of the deposited data

How the results depend on the processing

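No member passed the test under any of the 16 alternatives, and the members' median log2 difference stayed below 0 in every one. The count of all genes past the test was 10 in limma, against 4 with no filter on low values, 50 in DESeq2, 22 with GC correction, 19 with a replicate block, 24 without hypoxia 1 and normoxia 3, and 1 to 19 when single replicates were left out (1 without hypoxia replicate 3, 19 without normoxia replicate 3). For these counts the cause was not tested. Of 27 members measured under the stricter filter 26 were negative, and 24 to 46 of 48 were negative when single replicates were left out. The members' median then ran from -0.47 to -0.04. Of 747 values of single members under alternatives, 73 changed sign, in 27 members, and 0 of these members had passed the test. They were GINS2 (0.0396), GMNN (0.0743), ORC6 (0.0167), POLA1 (-0.13), RFC1 (-0.0137) and RFC5 (0.0805) with edgeR; GINS2 (0.0272), GMNN (0.0522), ORC6 (0.0021), POLA1 (-0.16), RFC1 (-0.0437) and RFC5 (0.0671) with DESeq2; POLA1 (-0.0245) and RFC5 (0.0065) with a pseudocount of 1; POLA1 (-0.0284) with TMM scaling; POLA1 (-0.0205) with GC correction; and ORC2 (0.12), ORC3 (0.53), RPA3 (0.11) and RRM1 (0.0201) without hypoxia 1 and normoxia 3. Over the 6 fits that leave out 1 replicate, the log2 differences that changed sign spanned CDC45 -0.38 to 0.0992, CDC6 -0.82 to 0.0073, CDC7 -0.65 to 0.20, CDT1 -0.16 to 0.36, DBF4 -0.61 to 0.26, FEN1 -0.68 to 0.0129, GINS2 -0.43 to 0.17, GMNN -0.51 to 0.40, MCM6 -0.58 to 0.0099, ORC2 -0.44 to 0.0432, ORC3 -0.66 to 0.81, ORC6 -0.35 to 0.22, POLA1 -0.35 to 0.43, POLD3 -0.26 to 0.11, POLE2 -0.66 to 0.33, PRIM1 -1.06 to 0.11, PRIM2 -0.18 to 0.43, RFC1 -0.26 to 0.61, RFC2 -0.38 to 0.10, RFC3 -0.80 to 0.32, RFC4 -0.36 to 0.13, RFC5 -0.32 to 0.31, RPA1 -0.19 to 0.11, RPA2 -0.34 to 0.0551, RPA3 -0.66 to 0.39, RRM1 -0.34 to 0.35 and RRM2 -0.63 to 0.0213. The cause was not tested. At an unadjusted p below 0.05, 3 members were called without hypoxia replicate 1 (CDC25A, MCM4 and FEN1; 2.46% of tested genes), 1 without normoxia replicate 2 (MCM5; 2.0%) and 5 without hypoxia 1 and normoxia 3 (POLA2, CDC25A, MCM4, GINS4 and FEN1; 4.25%), with a lowest adjusted p of 0.776 by limma. Whether replicate numbers pair the samples could not be decided, since 3 libraries per group leave few independent deviations. Deviations from the group means of libraries with the same number correlated across genes at -0.40, 0.24 and 0.22. Hypoxia replicates 1, 2 and 3 correlated best with normoxia replicates 3, 1 and 3. With the replicate block, 19 genes and 0 members passed. With 3 libraries per group the members' median standard error was 0.34 and their unadjusted 95% intervals were 1.05 to 3.57 wide on the log2 scale. The hypoxia check gene VEGFA, with a similar standard error (0.35), did not pass at a log2 difference of 1.39 (adjusted p = 0.867 by limma). Members with differences of such a size, above 2-fold, could therefore also fail the limma test. VEGFA did not pass edgeR either (adjusted p = 0.396) but passed DESeq2 (adjusted p = 0.00346), which called 0 members.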
